A study of Mus musculus with 12 samples.

Results

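The score table of pol III loci in WT and Maf1-/- mouse liver lists 671 loci, and 238 of them are not tRNA genes by their locus text. These 238 loci are described here: genes for the short structural RNAs that pol III makes, SINE repeats and stretches with no annotation, classed by that text. By class they are 42 loci labelled 5S rRNA, 9 5S copies taken from RepeatMasker, 20 of 4.5S RNA, 5 of U6, 2 of 7SL, and 1 each of 7SK, RNase P RNA, RNase MRP RNA, U6atac, Y1, Y3, vault RNA and a BC1 copy, with 127 SINEs and 25 unannotated loci (NA). Livers came from C57Bl/6J mice aged 12 to 14 weeks, fasted overnight and refed for 4 h, either wild type or Maf1 KO, and both groups had the same feeding. The KO mice lack Maf1 in the whole body, not in the liver alone. Every locus has 1 score for WT and 1 for KO, and which libraries went into a score, how it was made and at what depth are not given. No error, no n and no test belong to these scores, and a ratio is simply the KO score over the WT score. The only replicated measurements of these RNAs are in a separate table of 7 WT and 5 KO liver libraries, each with 1 value per gene.

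Pol III transcribes small untranslated RNAs, and MAF1 is a protein that binds the polymerase and represses its transcription. 5S rRNA is part of the large ribosomal subunit. 7SL RNA is the scaffold of the signal recognition particle, which brings secreted proteins to the endoplasmic reticulum. 7SK RNA holds the transcription factor P-TEFb inactive, RNase P RNA trims the 5′ ends of tRNAs, and RNase MRP RNA cleaves the precursor of ribosomal RNA. U6 and U6atac are the snRNAs at the centre of the major and minor spliceosome, Y RNAs are bound by the Ro protein, and vault RNA is a component of the vault particle. B1 and B2 are mouse SINEs, short mobile repeats whose ancestors were 7SL RNA and a tRNA, and 4.5S RNA is a rodent RNA related to B1.

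Genes of this set use unlike promoters, and the sequences before genes of the 7SK, U6, U6atac, RNase P, RNase MRP and Y classes are shown because such genes carry their promoter upstream, with a TATA box and a proximal element. They are the 75 bases before each start on the transcribed strand (mm9), with CACC found from 72 to 51 bases before the start and TATA found from 36 to 21 bases before it in capitals.
7SK (chr9:78023441-78023515, minus strand): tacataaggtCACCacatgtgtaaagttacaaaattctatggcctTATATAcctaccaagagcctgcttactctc
U6 (chr9:62981015-62981089, plus strand): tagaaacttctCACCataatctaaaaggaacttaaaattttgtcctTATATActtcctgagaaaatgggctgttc
Y3 (chr6:47731548-47731622, plus strand): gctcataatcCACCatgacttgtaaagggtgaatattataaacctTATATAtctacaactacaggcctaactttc
Y1 (chr6:47738180-47738254, minus strand): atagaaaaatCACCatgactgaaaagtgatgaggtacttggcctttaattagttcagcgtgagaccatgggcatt
RNase P (chr14:51427448-51427522, minus strand): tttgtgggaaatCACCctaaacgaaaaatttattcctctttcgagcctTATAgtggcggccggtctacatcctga
RNase MRP (chr4:43505931-43506005, minus strand): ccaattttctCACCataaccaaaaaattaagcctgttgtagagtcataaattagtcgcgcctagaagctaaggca
U6atac (chr2:27395451-27395525, minus strand): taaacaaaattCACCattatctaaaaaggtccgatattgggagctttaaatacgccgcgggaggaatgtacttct

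Searched on both strands, CACC lay in its window at 10 of the 11 loci of these classes and TATA in its window at 7 of 11. The same windows held CACC at 12.7% and TATA at 10.9% of 433 tRNA loci, and both together at 0.462% of tRNA loci and at 1.01% of 32851 RefSeq promoters (GRCm38). Both were present at 63.6% of the 11. The motifs and windows were chosen with these sequences in view. One U6 locus, on chromosome 10 at position 79448251, had neither. Its score was like that of the other 4 U6 loci, but it is among 3 U6 copies that are identical over 107 bases. Scores of identical copies cannot be told apart, so this likeness does not show whether the locus without the motifs is transcribed.

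The 4.5S RNA genes lie in 2 clusters on chromosome 6, and the sequences below show how the second cluster departs from the first. In the first, capitals mark the bases substituted in any of the copies after it, and in those, their own substituted bases (mm9). The last copy also holds 1 inserted base and the short copy lacks 8, and neither difference is marked.
First cluster, common copy (chr6:47604999-47605093, minus strand): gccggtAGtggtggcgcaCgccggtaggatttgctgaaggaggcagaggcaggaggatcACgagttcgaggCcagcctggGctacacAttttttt
Second cluster (chr6:128710725-128710819, minus strand): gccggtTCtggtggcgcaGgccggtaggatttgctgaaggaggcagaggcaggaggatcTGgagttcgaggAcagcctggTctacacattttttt
Second cluster, short copy (chr6:128788477-128788563, plus strand): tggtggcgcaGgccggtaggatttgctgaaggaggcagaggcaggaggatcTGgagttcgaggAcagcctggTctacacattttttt
Second cluster (chr6:128793305-128793400, plus strand): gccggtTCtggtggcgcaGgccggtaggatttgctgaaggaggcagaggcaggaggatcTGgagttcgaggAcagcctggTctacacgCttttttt

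Repeats are shown (mm9), first by the run shared by the 3 SINE loci of highest score, which are labelled B4A. Next come the 3 SINEs with the largest KO over WT ratio. They were taken from loci with a mean of both scores at or above the median of the 238 loci, and that mean includes the KO score. The last is the MIR repeat inside Polr3e, a gene for a subunit of pol III itself. Capitals mark a run of 6 T at the end of the first and, in the others, a match to the B box, the internal promoter element that TFIIIC binds, searched as GTTCGANNC or GTTCAANNC on both strands. The second and the fourth of these hold no match.
Run shared by the B4A loci (here chr6:128748877-128748979, minus strand): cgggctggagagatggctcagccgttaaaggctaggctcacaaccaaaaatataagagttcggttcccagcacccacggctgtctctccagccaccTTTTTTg
B1 and ID repeat in an intron of Mettl7a2 (chr15:100213624-100213723, plus strand): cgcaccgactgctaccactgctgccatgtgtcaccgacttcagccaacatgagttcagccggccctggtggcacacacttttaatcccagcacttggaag
B1_Mus1 (chr19:23195036-23195211, plus strand): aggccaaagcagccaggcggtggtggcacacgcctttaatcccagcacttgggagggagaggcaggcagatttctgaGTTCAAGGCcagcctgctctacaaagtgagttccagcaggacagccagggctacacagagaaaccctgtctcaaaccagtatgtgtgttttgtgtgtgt
B2 pair in an intron of Dnahc2 (chr11:69355229-69355328, plus strand): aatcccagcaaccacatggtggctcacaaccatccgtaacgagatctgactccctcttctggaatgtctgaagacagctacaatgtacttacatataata
MIR in an intron of Polr3e (chr7:128062206-128062333, minus strand): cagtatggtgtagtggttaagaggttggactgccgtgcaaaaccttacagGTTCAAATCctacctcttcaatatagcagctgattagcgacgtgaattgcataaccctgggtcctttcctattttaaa

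Scores were higher in Maf1-/- than in WT liver at most loci that were not tRNA genes, but by less than at tRNA loci. Of the 238 loci, 210 had a score above 0 in both groups, and 192 of these were higher in the KO and 17 lower. The median ratio was 1.87, with quartiles of 1.69 and 3.00, against a median of 2.98 over 295 tRNA loci. Past 2-fold, 85 of the 210 were higher in the KO, which is 40.5%, beside 62.8% of all 505 loci above 0 in both groups and 78.6% of tRNA loci. Past 2-fold lower were 5 of the 210, which is 2.38%, beside 1.58% of all such loci. These 5 were a 5S copy, a B1, a B2 and the unannotated NA_29 and NA_20, with WT scores of at most 9. The plot of both scores shows most loci of the structural RNAs at or below the 2-fold line.

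**Figure D1:**
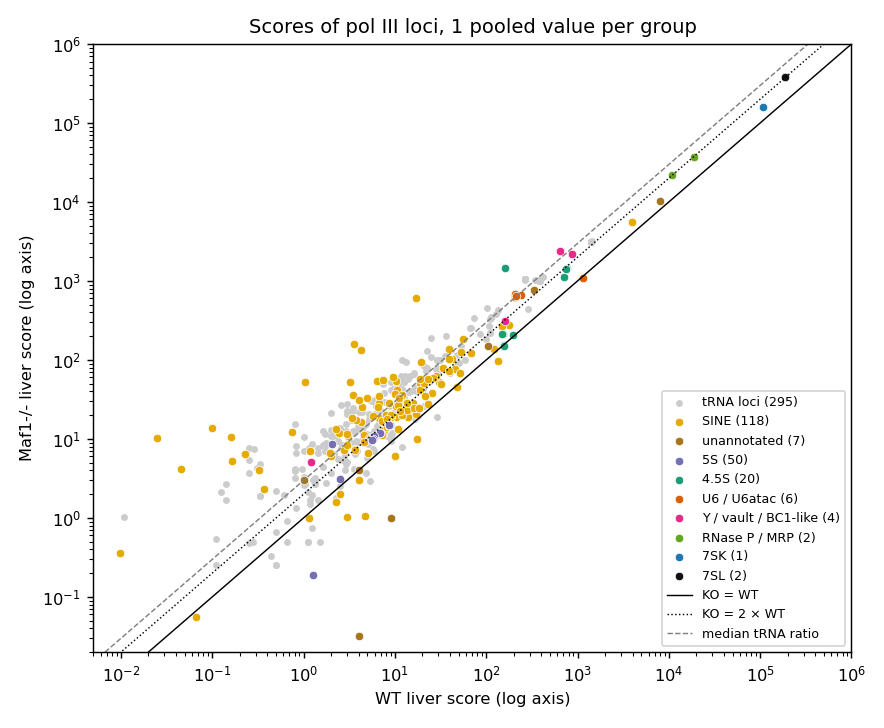
Score in Maf1-/- liver (vertical, log axis) against score in WT liver (horizontal, log axis), 1 point per locus above 0 in both groups, coloured by class, with tRNA loci in grey. The solid line marks equal scores, the dotted line a ratio of 2 and the dashed line the tRNA median ratio of 2.98. The 7SL, 7SK, RNase P and RNase MRP loci lie between the solid and the dashed lines.

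The depth of the pools is not given, so a level common to all loci cannot be told apart from depth, and ratios are best read against each other. The summed score was 551920 in WT and 1044057 in KO over the loci other than tRNA genes, a ratio of 1.89, and it was 21504 and 57066 over the tRNA loci, a ratio of 2.65. Divided by the tRNA median, the KO over WT ratio of the non-tRNA sum became 0.634 and so changed direction. On that scale 22 of the 210 loci were past 2-fold higher and 43 past 2-fold lower, and 26.2% of the ratios lay above 1, against 91.9% as deposited. Divided instead by the sum over all loci, 37 were past 2-fold higher and 15 lower, with 43.8% above 1. That a score was higher in KO therefore holds on the deposited scale. The order of the class ratios is the same on each scale by construction, because each scale divides all ratios by 1 number.

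Among the RNAs with scores above 100, the order ran from U6atac, near 1, to U6, with a median ratio of 3.05, and Y3. The figure by class gives the ratio of each locus.

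**Figure D2:**
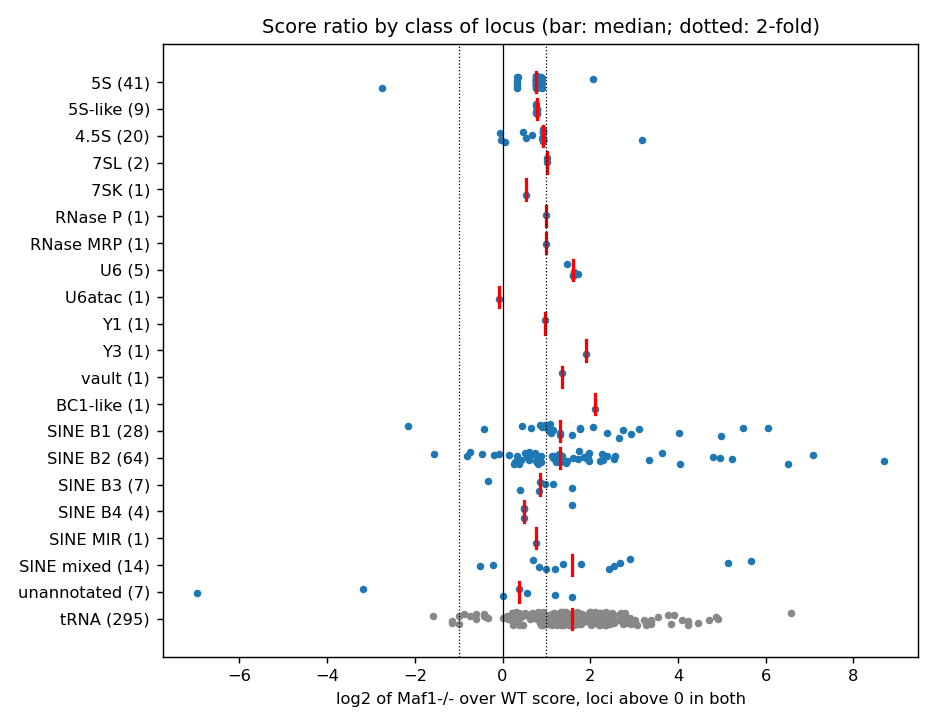
Log2 of the Maf1-/- over the WT score (horizontal) for each locus above 0 in both groups, by class (vertical, number of loci in parentheses), with tRNA loci in grey. Red bars are class medians, the solid line marks no difference and the dotted lines 2-fold. U6atac, with a ratio of 0.949, lies at the solid line, and the U6 loci, from 2.77 to 3.29, lie to the right of the 2-fold line.

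Most of the signal came from very few genes. The 2 7SL loci, on chromosome 12, had scores of 187674 and 187611 in WT and of 381063 and 380207 in KO, ratios of 2.03 each. Together they made 68.0% of the non-tRNA score in WT and 72.9% in KO. They share sequence and their scores cannot be taken as independent. 7SK, on chromosome 9, scored 108755 in WT and 158505 in KO, a ratio of 1.46, and its share of the non-tRNA score was 19.7% in WT and 15.2% in KO. RNase MRP RNA scored 18867 and 37580, a ratio of 1.99, and RNase P RNA 10824 and 21646, a ratio of 2.00. The ratio of 7SK was thus the lowest among these abundant RNAs.

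U6 and U6atac, the spliceosomal RNAs made by pol III, had unlike ratios. The 5 U6 loci scored between 204 and 238 in WT and between 622 and 679 in KO, and all 5 were past 2-fold higher. Of these, 3 are identical over 107 bases, and each 30-base word of the U6 loci occurs at a median of 145 to 147 places in the genome, so that they cannot be read as separate genes. U6atac, the minor-spliceosome partner, scored 1151 in WT and 1092 in KO, a ratio of 0.949. It was the only single-locus class with a ratio below 1. One U6 locus, on chromosome 12, is listed on the minus strand whereas the annotated gene is on the plus strand.

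The 2 Y RNA genes, neighbours on chromosome 6, differed in ratio. Y3 scored 643 in WT and 2418 in KO, a ratio of 3.76, and Y1 scored 159 and 310, a ratio of 1.96. Vault RNA, at position 36961520 to 36961662 of chromosome 18, scored 873 and 2225, a ratio of 2.55. The BC1 copy on chromosome 4 scored 1.20 and 5.15, which is too low to read as a ratio. Leaving out the BC1 copy, Y3 was the only single-locus class with a ratio above the tRNA median of 2.98.

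Scores of repeated genes carried fractions. Of 22 loci with a score whose 30-base words each occur once in the genome, 16 had whole numbers in both groups (within 1e-06), against 1 of 195 loci with a repeated word. Copies of the same sequence had nearly the same scores, so they repeat 1 measurement, although each counts as a locus in the numbers over all 210. With loci of identical sequence taken once, a choice made after seeing the data, 83 of 160 loci were past 2-fold higher, which is 51.9%, and 5 lower. The median ratio was then 2.08, and 71.4% of 147 distinct tRNA loci and 61.2% of all 307 were past 2-fold higher.

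This was plain for 5S rRNA, whose copies are compared here by the number of substitutions from the commonest one. The table lists the 50 loci of the cluster on chromosome 8 on the plus strand, whereas the annotation of the same build (mm9) has the genes on the minus strand. The 25 identical copies of 119 bases scored between 8.62 and 8.67 in WT and 14.8 in KO, ratios of 1.71 to 1.72. Of the copies with 1 substitution, 3 that are identical to each other scored 6.88 and 11.7, and another 3 scored 5.72 and 10.6. The 3 copies with 5 substitutions scored 2.48 and 3.13, a ratio of 1.26. The copy with 2 substitutions scored 2.06 and 8.56, a ratio of 4.16, and the copy with 8 scored 1.28 and 0.191, so that 1 was past 2-fold each way. No other 5S locus was past 2-fold. The locus labelled 5S on chromosome 6 differed from the common copy at 48 positions and was listed at 0 in both groups, so its sequence goes against its label. The 42 loci labelled 5S held 0.0514% of the non-tRNA score in WT and the 9 from RepeatMasker 0.0133%. The libraries were made with a kit that removes ribosomal RNA, and its part in these low scores was not tested.

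The 4.5S genes had like ratios in the first cluster, except at 1 locus, and unlike ones in the second. In the first, 14 loci scored between 711 and 772 in WT and between 1133 and 1451 in KO, with ratios of 1.59 at that locus and 1.88 to 1.90 at the others. In the second, 6 loci scored between 148 and 199 in WT. Of these, 5 had ratios from 0.967 to 1.44, and the short copy, with 87 bases, scored 162 in WT and 1478 in KO, a ratio of 9.11. Its KO score was close to those of the first cluster, while it shares 5 substitutions with its neighbours and not with that cluster. A run of 4 T, the letters at which pol III stops, lay between 10 bases before and 50 bases after the end of all 20 loci, as at 86.6% of tRNA loci. It was found at 19 of 127 SINE loci, and in 32 of the stretches of that length 1000 bases further on. The figure of copies sets the scores against the number of substitutions.

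**Figure D3:**
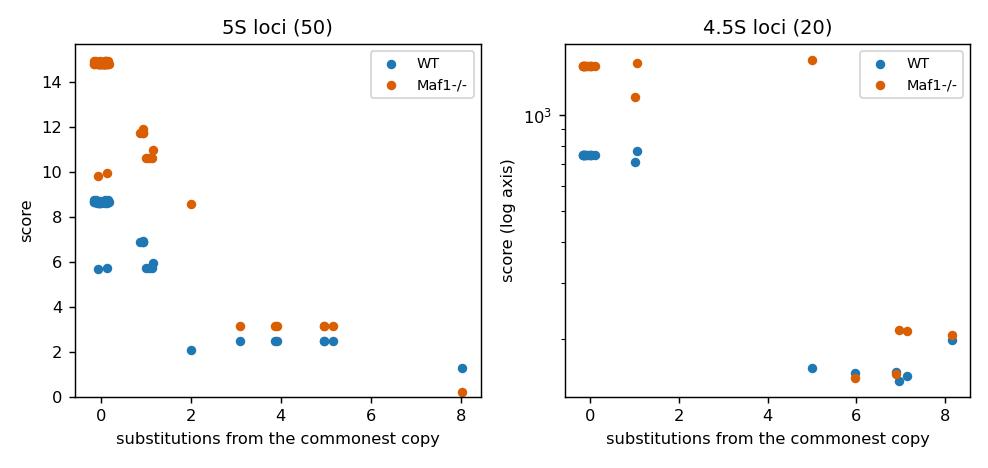
Scores of 5S loci (left, linear axis) and 4.5S loci (right, log axis) in WT (blue) and Maf1-/- (orange) liver against the number of substitutions from the commonest copy, with a small sideways shift of points. The 5S locus with 48 substitutions is left out. The 4.5S copy with 5 substitutions shows the widest gap, 162 in WT and 1478 in KO.

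SINEs made up more than any other class in number and little in score. Of 127, 118 were above 0 in both groups, 107 higher in the KO and 11 lower, with a median ratio of 2.41. Past 2-fold, 71 were higher and 2 lower, and 60.2% higher is close to the 62.8% of all loci. B1 had a median ratio of 2.48 over 28 loci and B2 of 2.47 over 64, while B3 had 1.82 over 7. B1 is derived from 7SL RNA, and B2 and B3 from a tRNA.

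By label, the 3 SINE loci with the highest scores belonged to none of these families. They are labelled B4A, lie in or just beside the second 4.5S cluster and scored 3999, 3997 and 3992 in WT and 5582, 5580 and 5579 in KO, a ratio of 1.40 for each. They count as SINEs here by that label alone, and whether they are copies of that repeat was not tested. They share a run of 103 bases that occurs in no other of the 671 loci, and it ends with 6 T and then G. Together they made 2.17% of the non-tRNA score in WT, where all 20 4.5S loci made 2.07%, and in KO the order was the other way, with 1.604% and 2.11%. Without them the summed SINE ratio was 2.54, against 1.56 with them.

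Among SINEs the widest ratios came with the lowest WT scores. Of the 15 SINE loci with a ratio above 10, 14 had a WT score below 5. The largest, 416, was at a B2 with scores of 0.0250 in WT and 10.4 in KO, and was chosen after its values were seen. Over the 118 loci Spearman's rho of the log2 ratio was −0.48 with the WT score and −0.08 with the mean of both scores, and the WT score is part of the ratio, so this is a description of the table only. At the 27 loci with a WT score of 20 or more, ratios ran from 0.719 to 3.46 with a median of 1.70, and 10 were past 2-fold. The plot of SINE ratios shows this narrowing.

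**Figure D4:**
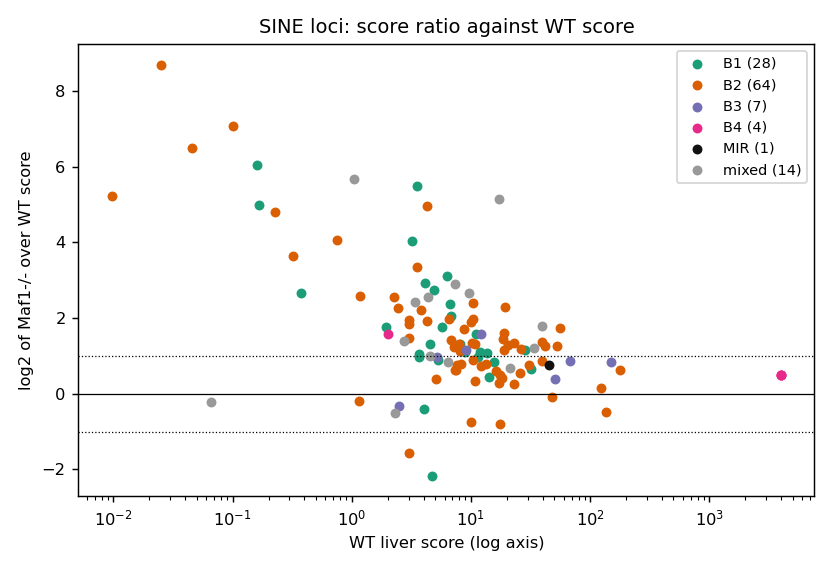
Log2 of the Maf1-/- over the WT score (vertical) against the WT score (horizontal, log axis) for 118 SINE loci, coloured by family. The solid line marks no difference and the dotted lines 2-fold. Ratios spread widely at WT scores below 5 and lie between 0.719 and 3.46 at scores of 20 or more.

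Of the SINEs with a mean score at or above the median of the 238 loci, 11.8, 3 had the largest ratios. The mean includes the KO score, and the first and second of these reached it only through that score, so their choice favoured a large ratio and their values are given as a description. The B1 and ID repeat in an intron of Mettl7a2 scored 1.05 in WT and 53.2 in KO, a ratio of 50.8 on a WT score too low to size it. Its label joins ID_B1, of the B4 family, on the minus strand to B1_Mur3 on the plus strand. The B1_Mus1 on chromosome 19, outside any annotated gene, scored 3.55 and 159, a ratio of 44.9 with the same limit. The B2 pair in Dnahc2, on the other strand than that gene, scored 17.1 and 605, a ratio of 35.3, with 30-base words found at a median of 907 places. It was the SINE with the highest KO score after the B4A loci.

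At the other end of the same set were B2 repeats. The B2_Mm1a in an intron of Il33 scored 17.5 in WT and 10.0 in KO, a ratio of 0.571. A B2_Mm1a on chromosome 9 at 46080760, outside genes, scored 136 and 97.9, a ratio of 0.719. A B2_Mm1t in an intron of Aldh5a1 scored 48.1 and 45.3, a ratio of 0.941. None of these was past 2-fold.

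B box matches were found within 54.3% of the SINE loci, against 6.30% of stretches of the same length 1000 bases further upstream and 89.6% of tRNA loci. SINE loci with and without a match had median ratios of 2.46 and 2.27. The loci are short windows, so a match outside the window is not seen. For B1 the medians were 3.21 with a match and 2.10 without, and for B2 2.46 and 2.53, so that the order was not the same in both families.

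Of the SINE loci, 62 lay within an annotated gene, 27 of them on its strand, and 65 lay outside genes. The median ratio was 2.41 inside genes and 2.47 outside. A SINE within a gene on its strand can also be read as part of the unspliced transcript, so host genes were set beside loci. For 59 loci, SINE or unannotated, the host gene was measured in the libraries, and 52 of these had scores above 0 in both groups. Over the 52, the median log2 difference of the host, KO minus WT, was −0.05, while that of the locus ratio was 0.97. These 2 medians are on unlike scales, because host values are scaled by library and the depth behind the scores is not given. Their gap therefore cannot show whether loci changed apart from their hosts. Spearman's rho between host and locus was 0.33 over these 52 loci, 0.34 over 21 loci on the strand of the host and 0.20 over 26 on the other. No host gene passed the limma threshold, an adjusted p below 0.01 together with a log2 fold change beyond 0.5 either way. Of all 13304 genes 0.015% passed, and 3069 had an unadjusted p under 0.05. When WT 2, a library that stood apart, was left out, 6.79% of all genes passed, and among the hosts Ptprf, at −1.11 (limma adjusted p 0.00943), and Wdr81, at −0.96 (limma adjusted p 0.00803). Both are hosts of unannotated loci with a score of 0 in 1 group, and no host of the 52 passed.

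The MIR repeat in Polr3e, on the strand opposite to the gene, scored 45 in WT and 76 in KO, a ratio of 1.69, with every 30-base word occurring once in the genome. Polr3e itself had a log2 fold change of −0.17 (SE 0.11, limma adjusted p 0.317) across the libraries. In Il33, a cytokine gene, the log2 fold change was −0.10 (SE 0.13), and in Aldh5a1, an enzyme of GABA breakdown, it was −0.10 (SE 0.10). Mettl7a2 and Dnahc2 were not analysed in the libraries.

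Of the 25 unannotated loci, 13 were listed at 0 in both groups and 7 were above 0 in both. The highest, NA_21 at chromosome 11 from 101519634 to 101519733, lies within an annotated U2 snRNA gene, and scored 8069 in WT and 10434 in KO, a ratio of 1.29. U2 is a spliceosomal RNA made by pol II, and the 30-base words of the locus occur at a median of 10 places. NA_18 begins in the last bases of an annotated U1 snRNA gene in an intron of Tex14 and scored 336 and 770, a ratio of 2.29. NA_2, on an exon of Sdhc, a subunit of succinate dehydrogenase, scored 104 and 152, a ratio of 1.46. Divided by the ratio at the U2 locus, a comparison chosen after the scores were seen, 60 of the 210 loci were past 2-fold higher and 7 lower. NA_29 scored 9 and 1, and NA_20 4.06 and 0.0324.

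The per-library table gave 5 of these RNAs with replicates, and in none of them was the KO mean above the WT mean. The groups held 7 WT and 5 KO libraries, with 34.7 to 55.8 M reads each in the listed genes. By the methods, each group had as many mice as libraries. Maf1, the deleted gene, had 254 to 534 reads in WT libraries and 15, 5, 52, 7 and 15 in KO libraries, and its log2 fold change was −4.79 (SE 0.44, limma adjusted p 0.0006011). All 6 hepatocyte markers were measured, with summed log2 levels of 16.6 to 16.9 in WT and 16.7 to 17.1 in KO. All 4 markers each of Kupffer, endothelial, stellate and bile duct cells and all 5 of red cells were also measured. None passed the limma threshold, beside 0.015% of all genes. At an unadjusted p under 0.05 were 1 marker each of hepatocytes, stellate, bile duct and red cells, beside 23.1% of all genes. Summed levels of these cell types overlapped between groups, with stellate markers at 8.52 to 9.13 in WT and 8.82 to 9.44 in KO. In such bulk samples fewer cells of a type and less RNA per cell cannot be told apart. The library WT 2 stood apart, with a mean Spearman correlation of 0.960 with the other WT libraries and of 0.983 with the KO libraries, and it was the lowest WT library for Rmrp, Rpph1, Vaultrc5 and Maf1. KO 2 was likewise closer to the WT libraries (0.981) than to the other KO libraries (0.973). Log2 fold changes of the 5 RNA genes are therefore also given without WT 2 and without KO 2.

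Rmrp, the RNase MRP RNA gene, ran from 5.84 over a median of 8.06 to 9.38 in WT on the log2 scale, and had 8.44, 8.16, 5.97, 6.55 and 7.82 in KO. The groups overlapped. In reads, WT libraries held 2345 to 33948 and KO libraries 2339 to 14126. Its log2 fold change was −0.55 (SE 0.59, limma adjusted p 0.543), −0.90 without WT 2 (limma adjusted p 0.178) and −0.75 without KO 2 (limma adjusted p 0.411).

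Rpph1, the RNase P RNA gene, ran from 5.73 over a median of 8.55 to 9.28 in WT, and had 7.19, 7.43, 5.20, 5.86 and 6.68 in KO. The groups overlapped, as WT 2, at 5.73, lay within the range of the KO libraries. The KO libraries lay below the other WT libraries, and how many of all genes separate in this way was not counted. The log2 fold change was −1.66 (SE 0.57, limma adjusted p 0.192), short of the threshold, and −2.06 without WT 2 (limma adjusted p 0.00764), which passed it. Without KO 2 it was −1.90 (limma adjusted p 0.0899). Without WT 2, 6.79% of all genes passed.

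Rny3 ran from 0.45 over a median of 1.36 to 2.42 in WT, and had 1.22, 2.15, 0.22, 0.03 and 0.33 in KO. Its log2 fold change was −0.63 (SE 0.38, limma adjusted p 0.295) and −0.66 without WT 2 (limma adjusted p 0.229). It was −0.97 without KO 2 (limma adjusted p 0.0932), which was second to WT 1 among all libraries. Both Y RNAs are measured here by few reads. Vaultrc5, the vault RNA gene, ran from −1.07 over a median of 0.67 to 1.498 in WT, and had 0.17, 0.72, −1.18, −1.25 and −0.56 in KO. Its log2 fold change was −0.78 (SE 0.45, limma adjusted p 0.281) −1.02 without WT 2 (limma adjusted p 0.0722) and −1.07 without KO 2 (limma adjusted p 0.126). Vault RNA likewise had few reads, 15 to 100 a library. Rny1 ran from −2.18 over a median of −0.70 to 0.49 in WT, and had −0.56, −0.16, −2.32, −1.44 and −0.98 in KO. Its log2 fold change was −0.41 (SE 0.44, limma adjusted p 0.546), on only 7 to 71 reads a library. This was −0.45 without WT 2 (limma adjusted p 0.485) and −0.64 without KO 2 (limma adjusted p 0.318). The groups of all 3 genes overlapped.

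**Figure D5:**
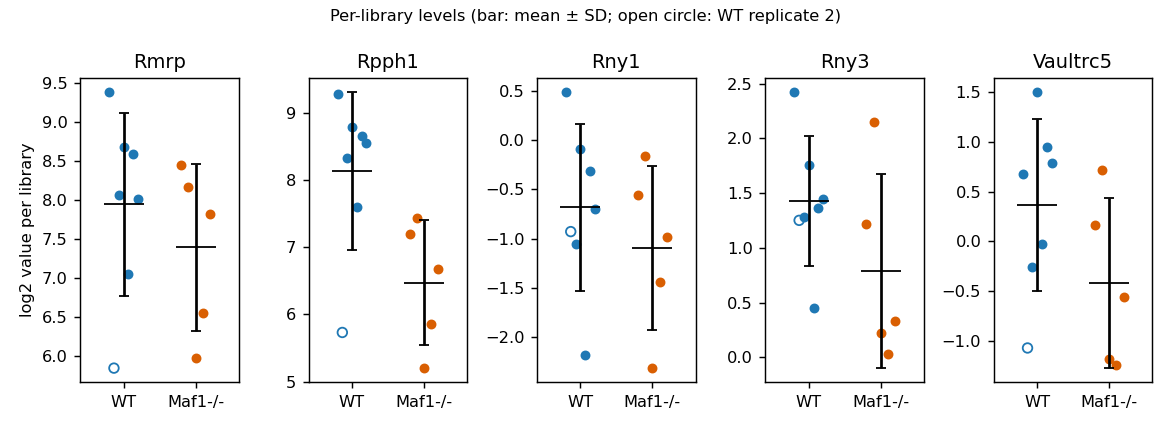
Log2 value of 5 pol III RNA genes in each liver library, WT (blue, 7 libraries, WT 2 as an open circle) and Maf1-/- (orange, 5 libraries), with the mean and SD as bars. The groups overlap for all 5 genes, for Rpph1 through WT 2 alone.

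The pooled scores and the library means thus went in opposite directions for each of these 5 RNAs. With all libraries none of the library differences passed the limma threshold, with limma adjusted p from 0.192 to 0.546. The log2 score ratios were 0.99 for Rmrp, 1.00 for Rpph1, 0.97 for Rny1, 1.91 for Rny3 and 1.35 for Vaultrc5, whereas the log2 fold changes in the libraries ran from −1.66 to −0.41. Relative to the tRNA median the log2 score ratios were −0.58, −0.58, −0.61, 0.33 and −0.23, below 0 for 4 of the 5. The KO score of vault RNA, 2225, was 13.7 times the 162 reads of Vaultrc5 in all 5 KO libraries, and the WT score, 873, was 2.05 times the 425 reads in the 7 WT libraries. The KO score of Rmrp was 0.970 times its 38736 KO reads and the WT score 0.201 times its 93946 WT reads. The scores are therefore not sums of the reads counted per gene in these libraries, and the cause of the opposite directions was not tested. Of the small RNAs made by pol II, Rnu12 had a log2 fold change of −0.63 (SE 0.47) and Rnu11 of 0.66 (SE 0.34). They were chosen after their values were seen.

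Genes for the proteins that bind or transcribe these RNAs were measured in the same libraries, 56 of 62 listed. None passed the same limma threshold, beside 0.015% of all genes. At an unadjusted p under 0.05, 6 (10.7%) were higher in KO, beside 9.9% of all genes, and 7 (12.5%) lower, beside 13.2%. Their median log2 fold change was −0.03, against −0.02 over all genes. Without WT 2, 3 of the 56 passed, beside 6.79% of all genes, so that the share was not above that of all genes.

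By particle, the La and Ro proteins, which bind new pol III transcripts and Y RNAs, had log2 fold changes of 0.43 (Ssb, SE 0.19) and 0.39 (Trove2, SE 0.13), both at an unadjusted p under 0.05. Of 10 proteins of RNase P and MRP, 3 were lower at that level, 30% beside 13.2% of all genes, and none was higher. Among the 3 were Rpp25l at −0.80 (SE 0.34) and Pop7 at −0.81 (SE 0.36). The median log2 fold change of the 10 was 0.08, against −0.02 over all genes. Of 6 SRP proteins, which bind 7SL RNA, Srp54b had 0.47 (SE 0.15) and Srp68 −0.58 (SE 0.26). None of the 7 proteins of the 7SK particle reached that level, and Ccnt1, the cyclin of P-TEFb, had 0.25 (SE 0.13) and Hexim1, its inhibitor, −0.21 (SE 0.14).

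Of 8 factors of upstream promoters, Brf2, the TFIIIB subunit for these genes, had −0.51 (SE 0.15, limma adjusted p 0.192), and Snapc3, a subunit of the complex on the proximal element, 0.57 (SE 0.20, limma adjusted p 0.192). Snapc3 passed without WT 2, with 0.72 (limma adjusted p 0.0064), as did Rpp25l and Rpp21, which were lower. Lsm2, of the ring on the end of U6, had −0.37 (SE 0.13), and Lsm3 0.24 (SE 0.12). Of the proteins that carry 5S rRNA into the ribosome or help to, Rpf2 had 0.67 (SE 0.28) and Heatr3 0.27 (SE 0.11). Mvp, the main protein of the vault, had −0.69 (SE 0.35), and Parp4, another vault protein, 0.23 (SE 0.14).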

How the data were processed

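Livers were perfused and their RNA made into stranded, ribosome-depleted libraries by the authors. The deposited scores of pol III loci, in mm9 coordinates, are 1 value per group made in a way not given in the sources used here, so their depth is unknown. The deposited log2 values of 13304 genes come, per the study's methods and the submitters' processing notes, from reads that the authors trimmed with cutadapt 1.8, aligned with STAR 2.5.2b to GRCm38 and counted with HTSeq 0.6.1 before scaling. The values move in steps of 1 read plus 0.5, and 100% of the low values came out whole within 0.02 reads, so reads were recovered. They were not divided by gene length, although the file is named for RPKM.

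Loci were compared as KO over WT score where both were above 0, with 2-fold as the limit. Sequences and copies of 30-base words were read from NCBIM37, genes from GENCODE M1, with Python 3.11.15. The 2 groups of libraries were fitted without covariates in limma (3.58.1, under R 4.3.3), with Benjamini-Hochberg adjustment over all genes. The fit was tested on simulated data. The methods give 7 WT and 5 KO mice, as many as there are libraries. Loci named are all those of classes of up to 5, the 3 of highest mean score in larger classes, and the 3 SINE or unannotated loci with the largest ratio each way at a mean score at or above the median. Partner genes named are up to 2 per list by smallest p. Other named loci and genes were chosen after their values were seen. The members and lists were chosen with earlier results of these data known. Alternatives were another fold, filters, a pseudocount, other scalings, the replicate block, a residual factor and leaving out each library. Some sequences and a marker are not reported here.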

Additional observations from a re-analysis of the deposited data

How the results depend on the processing

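Counts of loci past 2-fold depend on the scale and on the loci counted. Higher in KO were 85 as deposited, 167 past 1.5-fold, 22 after division by the tRNA median, 37 after division by the sum over all loci, and 35 of the 78 loci with at least 50 percent of their words single-copy (44.9%, against 40.5% of all 210; chosen after seeing the data). They were 83 with 1 added to both scores, 61 of 161 at or above the median score, and 83 with identical sequences taken once. Lower were 5 as deposited, 43 and 15 after the same divisions, 0 at loci with a mean score at or above the median of all loci, and 3 at the single-copy loci. The summed KO over WT ratio was 1.89, 1.82 without the largest locus, 1.58 without 5S, 4.5S and 7SL, and 0.634, so reversed, after division by the tRNA median. Spearman's rho between hosts and loci was 0.33, and 0.26 at loci of higher score. Pol III RNA genes past the threshold numbered 0 in the libraries and 1 with 1 residual factor, and partner genes 0 and 5. Leaving out each library gave 0 to 1 and 0 to 3, the highest of each without WT 2. With the replicate block, which leaves out WT 6 and WT 7, both counts were 0. The numbers do not pair the libraries, as same-numbered libraries had correlations of their deviations from −0.458 to 0.227, and over all genes the block left 1 call of 2, with Maf1 no longer called (limma adjusted p 0.0792). Over all genes 904 were called without WT 2 and 1076 with 1 residual factor. The cause of these shifts was not tested. No log2 fold change of the 5 RNA genes changed sign under any alternative. Depth limits Rny1, Rny3 and Vaultrc5, which had 7 to 273 reads a library, and SINE scores below 5.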
